A study of Homo sapiens with 8 samples.

Results

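The regions described here are 709 distal sites of open chromatin in HUDEP-2 cells, each with an E-box placed 6 to 10 bp before a GATA word on the same strand. They were chosen from 43569 accessible regions on 24 chromosomes, obtained by joining the peaks of 4 ATAC-seq libraries wherever they shared 1 bp. Of these regions, 24937 lay more than 1000 bp from every annotated start site, and 22060 of those lacked the AP-1 palindrome TGANTCA within 100 bp of the summit. The members were 3.21% of these 22060 regions and 1.63% of all regions. The summit was the point of highest signal in the peak of highest rank, the E-box was any CANNTG, and the GATA word was AGATAA or TGATAA. Both strands were searched.

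HUDEP-2 is an established line of human erythroid progenitors that grows under doxycycline-induced immortalization. The cells carried a control guide RNA (sgControl), the control of a CRISPR interference experiment against EGR1. They were expanded in SCF, erythropoietin, dexamethasone and doxycycline, and then held for 5 h without growth factors in medium with bovine serum albumin. PBS or 50 ng/ml of SCF, the ligand of the receptor tyrosine kinase Kit, was added for 1 h, and each treatment had 2 libraries of 50000 cells that the methods call biological duplicates. The 4 samples with a guide against EGR1 were not analysed here. Peak values rather than read totals were given, so read depth is unknown. The lists held 29269 to 33616 peaks, and the median number of fragments over the summit was 20 to 26 per library. A region lay at the start site of 10 of 12 erythroid marker genes, 5 of 7 myeloid, 2 of 6 lymphoid and 1 of 4 megakaryocytic ones.

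E-boxes are bound by dimers of basic helix-loop-helix proteins, among them the pair formed by TAL1 with an E-protein such as TCF3, TCF4 or TCF12. GATA words are bound by GATA1 and GATA2. In blood cell precursors TAL1 and GATA1 join through LMO2 and LDB1 in a complex that can occupy an E-box and a GATA word roughly a helical turn apart, and such composite elements are known from enhancers of erythroid genes. The peak lists measure accessibility only, so which protein was bound at a member was not measured.

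The elements of 9 of the 10 members with the highest mean ranks are shown to make the layout visible. Each runs 5′ to 3′ on the strand of the GATA word, with the E-box and the GATA word in capitals. Positions are those of the printed bases in hg19.
COX7C-distal, chr5:85822718-85822746, plus strand: tccaaCAACTGatactggTGATAAagagg
LINC02334 intron, chr13:38533644-38533672, minus strand: agacaCAGCTGcacataaAGATAAttcca
MICU2 intron, chr13:22097232-22097261, minus strand: aaaccCATCTGagggtagaAGATAAgatgt
SULT2A1-distal, chr19:48395277-48395306, plus strand: aaatcCAGCTGcaggccccAGATAAgaaag
C2CD3 intron, chr11:73797697-73797725, minus strand: ggaaCATCTGtgctgagaaAGATAAaagc
RYR1 intron, chr19:39034904-39034932, minus strand: gtgtCATCTGccgcaagtaAGATAAagaa
CD84-distal, chr1:160510094-160510122, plus strand: cagagCAGCTGtggcctcTGATAAgcagg
INSIG1-distal, chr7:155115799-155115828, plus strand: tcaagCATCTGggttggagTGATAAacaat
CCDC178-distal, chr18:31049699-31049728, plus strand: acttCACTTGcctttaaaaaTGATAAagaa

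Elements of some of the members at or near genes of red cells and of the TAL1 complex are shown next. They come from a fixed gene list rather than from rank, and they have the same layout because the rule requires it. The elements of the other members near the listed genes are not printed.
GATA1 upstream, chrX:48641410-48641438, minus strand: gaggCAGCTGggagtgggcAGATAAggga
FECH intron, chr18:55250680-55250709, plus strand: tttctCATCTGcaaaatagTGATAAggcta
EPB41 intron, chr1:29253557-29253585, minus strand: tttcaCATCTGctgcaaaAGATAAaagca
RHD intron, chr1:25606376-25606405, minus strand: tcacatCAGCTGctggttTGATAAgctgat
BCL2L1 intron, chr20:30294668-30294697, minus strand: tgcctCATATGttgaagaaAGATAAcaccc
RUNX1 intron, chr21:36478715-36478743, plus strand: ggagCACATGgcacgtgcgAGATAAgagc
TCF4 intron, chr18:53210599-53210628, plus strand: caaggCAAGTGctcaacaaAGATAAggctt

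Where the element sat within an accessible site is shown for the MICU2 and C2CD3 introns, with 100 bp on either side of the summit and the same capitals.
MICU2 window, chr13:22097089-22097289, minus strand: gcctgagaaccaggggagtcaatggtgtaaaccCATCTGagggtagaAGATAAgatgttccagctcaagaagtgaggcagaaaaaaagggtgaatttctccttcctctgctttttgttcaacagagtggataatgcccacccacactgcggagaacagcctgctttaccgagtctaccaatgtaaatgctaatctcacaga
C2CD3 window, chr11:73797547-73797747, minus strand: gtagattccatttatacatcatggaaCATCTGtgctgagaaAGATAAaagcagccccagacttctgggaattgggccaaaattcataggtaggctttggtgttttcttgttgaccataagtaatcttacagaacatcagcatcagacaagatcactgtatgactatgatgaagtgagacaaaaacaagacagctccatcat
Over all members the element lay a median of 47 bp from the summit.

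The spacing of the elements was not even within the range that chose them. Of the 22060 distal regions without the AP-1 word, 70 had an E-box 6 bp before a GATA word, 203 had one at 7 bp, 293 at 8 bp, 105 at 9 bp and 51 at 10 bp. At the 26 gaps of 0 to 5 and 11 to 30 bp the count ran from 46 to 83, with a median of 62. The counts at 6 and 10 bp thus lay within the range of gaps that the rule did not use, and those at 7, 8 and 9 bp lay above it. The mean count at 7 to 9 bp was 3.23 times the median of the other gaps.

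The peak at 7 to 9 bp was seen for 1 order of the words and at the summit. With the GATA word first and the E-box after it, 70, 69 and 66 regions had gaps of 7, 8 and 9 bp, against 46 to 119 at the other gaps. In windows of the same size centred 400 bp to either side of the summit, the E-box-first order gave 23, 27.5 and 21 windows per side at 7, 8 and 9 bp, against 17 to 30 at the other gaps. These counts are enumerations of reference sequence and carry no test. The word pair was scarcer near start sites. A gap of 6 to 10 bp was present in 134 (0.719%) of 18632 regions within 1000 bp of a start site. Among the 24937 distal regions it was present in 790 (3.17%), and 81 of these 790 also held the AP-1 word. The GATA word alone was in 10.4% of the regions near a start site and 36.7% of the distal ones.

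**Figure D1:**
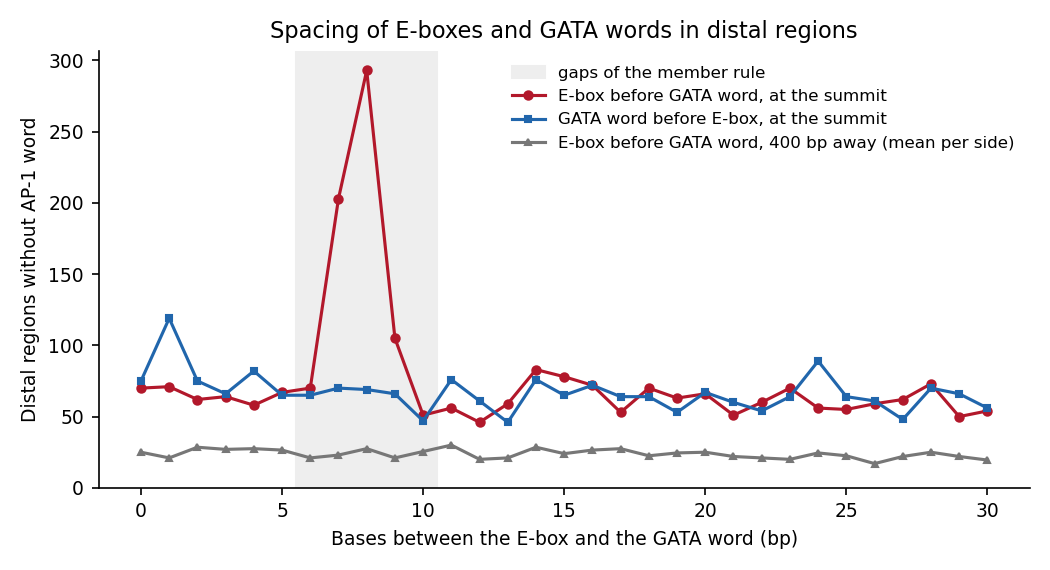
Number of distal regions without the AP-1 word (y axis) by the number of bases between the E-box and the GATA word (x axis, bp), for the E-box-first order at the summit, the reverse order at the summit, and the E-box-first order 400 bp away. Counts at the summit rise to 293 at 8 bp in the E-box-first order, while the other 2 lines stay flat across the shaded gaps of 6 to 10 bp.

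The E-box inside the elements was of particular kinds, a property that the rule left free. At gaps of 7 to 9 bp, 133 of 603 elements (22.1%) had CATCTG, against 136 of 1631 (8.34%) at the gaps of 0 to 5 and 11 to 30 bp and 3 elements (2.44%) at 6 and 10 bp. CAGATG is the same word read on the opposite strand, and it was present in 8.96% of elements at 7 to 9 bp and in 10.5% at the other gaps. The higher share of CATCTG was therefore tied to its direction relative to the GATA word. CAGCTG, which reads alike on both strands, was the second most frequent E-box, with 106 elements (17.6%) against 13.5% at the other gaps.

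E-boxes ending in CTG together made up 47.9% of elements at 7 to 9 bp, with 48.0%, 48.8% and 45.3% at the single gaps. At each of the other 26 gaps the share was between 20.7% and 46.9%, and over all of them it was 31.1%. Not every word with this ending had a higher share at 7 to 9 bp. CACCTG had 3.48% against 2.88% at the other gaps, and CAACTG had 4.81% against 6.32%. Outside this group, CATATG had 7.3% against 4.41%. Among the members, CATCTG was in 1 of 68 elements with a gap of 6 bp, 42 of 200 at 7 bp, 74 of 287 at 8 bp, 17 of 103 at 9 bp and 2 of 51 at 10 bp. CAGCTG was spread more evenly, with 12, 34, 50, 22 and 7 members in the same order of gaps. The canonical MYC-type word CACGTG was in 1.33% of elements at 7 to 9 bp.

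The bases between the words and after them varied more. At a gap of 8 bp, the base after the E-box was T in 35.9%, G in 27.5%, C in 23.7% and A in 12.9% of 287 members. The base before the GATA word was most often G, in 34.5%. The base following the GATA word was G in 46.3%, against 39.9% after any GATA word in these distal regions. The GATA word began with A in 64.0% of members, close to the 61.4% of all GATA words.

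For several other words the members' shares were close to those of the most similar regions. A second GATA word was present in 42.9% (95% Wilson interval 39.3 to 46.5) of members and in 46.0% (42.2 to 49.8) of 670 regions with the 2 words in the same order at a gap of 0 to 5 or 11 to 16 bp. The RUNX word TGTGGT was in 18.3% (15.7 to 21.4) of members and 19.0% (16.2 to 22.1) of those 670 regions. The STAT word TTCNNNGAA was in 7.05% (5.39 to 9.18) and 5.97% (4.41 to 8.03). The CACCC box was in 9.03% (7.13 to 11.4) and 10.9% (8.76 to 13.5). The EGR word GCGTGGG was in 1.13% (0.573 to 2.21) and 0.746% (0.319 to 1.73). More than 1 E-box within the window was found in 69.7% (66.2 to 72.9) of members and 62.2% (58.5 to 65.8) of the 670 regions, intervals that do not overlap. For the 272 regions with the reversed order at 6 to 10 bp the share was 64.0% (58.1 to 69.4), which overlaps that of the members. The ETS word CCGGAA was in 0.987% (0.479 to 2.02) of members, 2.54% (1.59 to 4.03) of the 670 regions and 3.1% of all distal regions. The CTCF core was in 5 members (0.705%) and 2 of the 670 regions (0.299%), against 3.63% of all distal regions. The intervals cover counting error only.

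In each of the 4 libraries the members ranked above the other distal regions without the AP-1 word. Every peak was given a percentile rank by its fold enrichment within its own library, where 100 is the highest and fold enrichment is the signal at the summit relative to the local background. The median rank of members that a library called was 49.9 and 51.7 with PBS and 52.4 and 55.6 with SCF. For the 21351 other distal regions without the AP-1 word it was 36.4 and 36.9 in PBS and 35.8 and 37.1 in SCF. The 2 sets of values do not overlap.

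Regions with the same words in another arrangement lay between these. The 670 regions with the same order and another gap had median ranks of 43.9, 45.2, 43.9 and 45.7 in PBS replicates 1 and 2 and SCF replicates 1 and 2. The 272 regions with the reversed order at 6 to 10 bp had 46.7, 50.4, 43.3 and 43.99, close to the members in PBS replicate 2 and further from them in SCF replicate 2. The 2311 regions with a GATA word and no E-box had 40.9, 40.9, 41.9 and 40.8. Members were thus highest of these 5 classes in all 4 libraries. The 81 distal regions with the composite and the AP-1 word together, which the rule left out, ranked higher still, with medians of 55.3, 59.4, 55.9 and 61.2. By mean rank over the libraries that called a region, these 81 had a median of 36.97, below the 40.13 of the members. Which of these 2 classes stood higher thus depended on the summary used. Within single libraries, high rank was not a property of the members alone. No test was made, because regions of 1 library are not replicates.

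**Figure D2:**
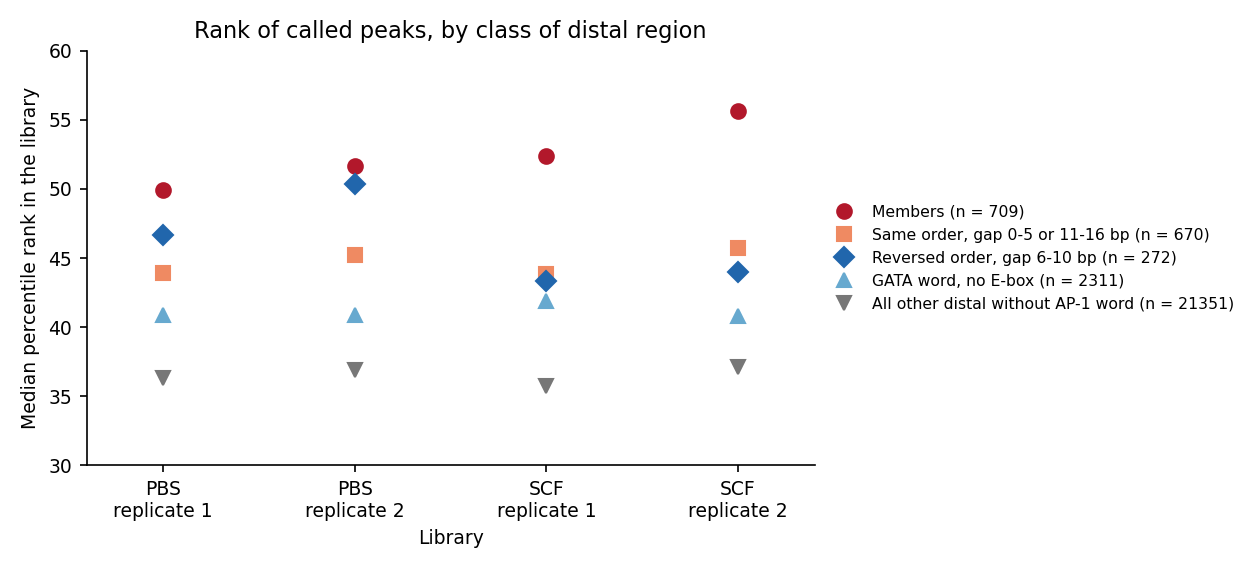
Median percentile rank of called peaks (y axis, from 30 to 60) in each of the 4 libraries (x axis), for members and 4 other classes of distal regions, with 1 point per class and library. Members are the highest point of the 5 classes drawn in every library, and the reversed order comes within 2 points of them in PBS replicate 2 only.

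Members were also called in all libraries more often than the other distal regions without the AP-1 word. Under PBS, replicates 1 and 2 called a peak at 510 and 579 members. Under SCF they called 441 and 558. All 4 libraries called 364 of 709 members (51.3%, Wilson interval 47.7 to 55.0), 3 called 96, 2 called 95 and 1 called 154. Over all regions, promoters included, 51.3% were called in all 4, the same share as for members. Over the other distal regions without the AP-1 word the share was 33.7% (33.1 to 34.4), for the same order at another gap 44.5% (40.8 to 48.3) and for the reversed order 43.4% (37.6 to 49.3). Composites with the AP-1 word had 49.4%, which lies within the interval of the members.

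The members were also wider and poorer in G and C than other distal regions. Their median width was 602 bp against 480 bp, and the GC content around the summit was 44.3% against 49.3%. Regions with a GATA word and no E-box had 508 bp and 43.8%. The median number of fragments over the summit of called members was 17 to 22 per library, against 13 to 17 for the other distal regions. The part of width, base composition and depth in the ranks and in the share called was not tested.

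Rank varied widely among the members. Averaged over the libraries that called the region, it ran from 0.143 to 99.0, with a median of 40.1 and quartiles of 23.6 and 64.0. A mean rank of 90 or more was found for 30 members (4.23%) and for 1.29% of the other distal regions, and a mean rank under 10 for 58 members (8.18%) and 17.4%.

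**Figure D3:**
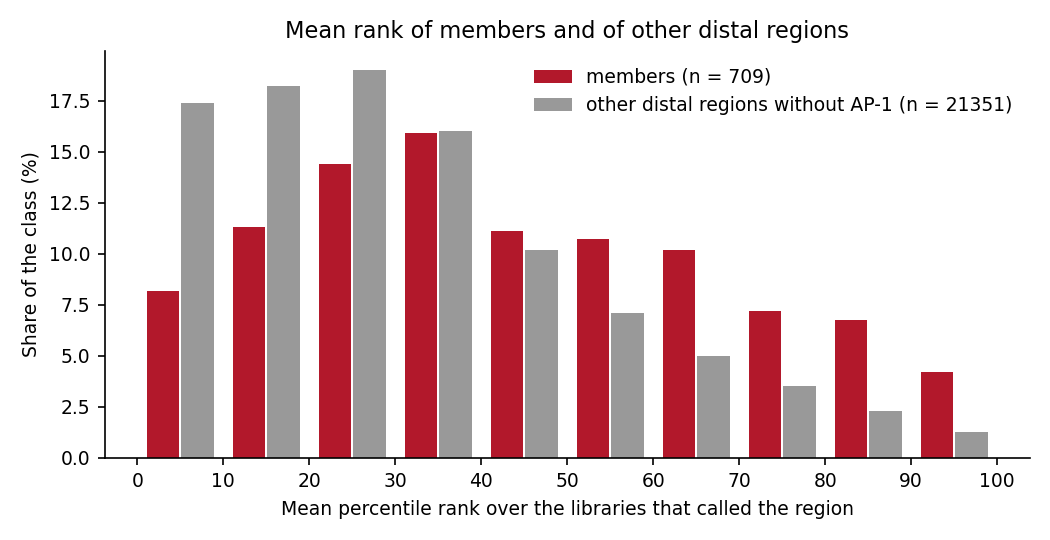
Share of each class (y axis, %) by mean percentile rank (x axis, in steps of 10 points), for the 709 members and the 21351 other distal regions without the AP-1 word. The members hold smaller shares below a rank of 30 and larger shares above 40.

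Members differed by gap and by E-box. The 590 members with a gap of 7 to 9 bp had a median rank of 41.7 and 52.7% were called in all 4 libraries, whereas the 119 members at 6 or 10 bp had 33.9 and 44.5%. Within the gaps of 7 to 9 bp, the 288 members whose E-box ended in CTG had a median rank of 48.6 and 59.0% were called in all 4, and the remaining 302 had 36.9 and 46.7%. The CATCTG members stood at 48.9 and 61.7%, the CAGCTG members at 46.4 and 60.4%, and the CAGATG members at 36.6 and 48.1%. The 17 members with more than 1 pairing of an E-box with a GATA word in this layout had a median rank of 60.1, and 15 of them were called in all 4 libraries. Distance from the summit showed no such order: the median rank was 41.9 with the element within 25 bp, 39.3 at 26 to 50 bp and 39.95 beyond 50 bp.

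Regions just outside the limits of the rule did not always rank below those just inside. Their median ranks were higher at the gap limits and at the window, and lower at the start-site limit. Regions with a gap of 5 bp had a median rank of 36.4, those at 6 bp 32.6, those at 10 bp 34.9 and those at 11 bp 35.6. The 119 regions whose element reached just past the window of 100 bp around the summit had 43.3, against 38.8 for the 157 members whose element reached its outermost bases. The 32 regions with the same words just within 1000 bp of a start site had 29.98, against 33.9 for the 33 members just beyond it.

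Most members lay in introns. In GENCODE, 463 (65.3%) were intronic, 215 (30.3%) intergenic and 31 (4.37%) overlapped an exon at the summit. The median distance to the nearest protein-coding start site was 18.1 kb, with quartiles of 7.38 and 46.7 kb, and 349 members (49.2%) lay upstream of that start. Median rank was 38.8 in introns, 42.1 between genes and 32.6 in exons. ZFPM2, which encodes the GATA cofactor FOG2, held 4 members, and SLC22A23 held 3. The element with its flanks, 31 bases in all, occurred once in the reference for 683 members. The other 26 had copies elsewhere, up to 54, and their median rank was 41.9 against 40.1.

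The member with the highest mean rank was intergenic, at −90929 bp from the start of COX7C, a gene for a cytochrome c oxidase subunit. Its ranks were 99.6 and 98.6 in PBS and 98.5 and 99.4 in SCF, with fold enrichments of 20.4, 17.7, 18.0 and 18.7. The next, in an intron of a noncoding RNA gene on chromosome 8, ranked 97.8 to 99.6. Its element, which is not printed above, had the E-box CATTTG. The member in an intron of MICU2, a regulator of mitochondrial calcium uptake, ranked 96.2, 94.9, 97.0 and 96.4 in the same order of libraries. The SULT2A1-distal member, at −5781 bp from the start of a sulfotransferase gene, had 136, 168, 118 and 114 fragments over its summit. These were the highest counts of the members except in SCF replicate 2, where the highest was 118. The SULT2A1-distal member ranked 95.2, 92.6, 96.8 and 96.8. The member in C2CD3, a gene of centriole assembly, ranked 96.3 and 98.8 in PBS and 89.3 and 95.04 in SCF, so that both SCF values lay below both PBS values. The RYR1 member ranked 93.2 to 95.9 in all 4 libraries. Of the 10 members of highest mean rank, 4 had CATCTG and 3 had CAGCTG.

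Among genes of the TAL1 complex and its partners, 4 of 18 had a member within 50 kb of a start site: GATA1, RUNX1, TCF4 and TCF12. Over all protein-coding genes the share was 970 of 20162 (4.81%). All 18 had a distal region within 50 kb, and over all protein-coding genes with such a region the share was 6.66%. Upstream of GATA1, the central transcription factor of red cell formation, the member began 3181 bp from the start site. It had 27 and 25 fragments over the summit in PBS and 26 and 25 in SCF. Its fold enrichments were 4.71, 3.31, 5.44 and 4.90 and its ranks 19.9, 4.16, 28.4 and 27.0, so it ranked low despite a number of fragments above the median of the members. In RUNX1, a transcription factor of blood stem cells, the member ranked 30.01 and 46.6 in PBS and 35.2 and 40.6 in SCF. The members in the E-protein genes TCF4 and TCF12 were weaker and each was called in 2 libraries, 1 of each treatment, with 8 to 12 fragments.

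Of 57 erythroid genes, 8 (14.0%) had a member within 50 kb: UROD, CPOX, FECH, SLC25A37, EPB41, RHD, BCL2L1 and TMCC2. The share over all protein-coding genes was 4.81%. Among genes with a distal region within 50 kb, the shares were 14.5% of 55 erythroid genes and 6.66% of all protein-coding ones. The member in an intron of FECH, the last enzyme of haem synthesis, ranked 68.5 and 56.7 in PBS and 63.5 and 73.3 in SCF, with 87, 84, 71 and 87 fragments. The member in RHD, a gene for the Rh blood group antigen D, ranked 73.4, 72.4, 78.0 and 81.3. Its 31 bases occur 2 times in the reference. The copy lies in an intron of the neighbouring paralogue RHCE, at chr1:25739920-25739949 on the plus strand, and is itself a member, named after its values were seen. The RHCE member ranked 87.3 and 85.1 in PBS and 65.9 and 86.8 in SCF. Its log2 difference was −0.23 ± 0.15 (SE, limma adjusted p = 0.821) and that of RHD was 0.17 ± 0.15 (SE, adjusted p = 0.893), so neither passed the test and the signs differed. Reads of the copies could not be set apart with certainty. The member near UROD, an earlier enzyme of haem synthesis, lay in an intron of the neighbouring ZSWIM5 and ranked 41.1, 58.7, 39.5 and 51.7.

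EPB41, which encodes the membrane skeleton protein 4.1, held 2 members. The stronger ranked 49.6 and 39.8 in PBS and 28.1 and 22.03 in SCF, and the weaker was called in PBS replicate 2 and SCF replicate 2 with 13 and 7 fragments. The BCL2L1 member, in the gene for the survival protein Bcl-xL, ranked 37.3, 46.9, 29.9 and 55.2. The members near TMCC2, CPOX and SLC25A37 (the iron importer mitoferrin-1, with 2 members) were each called in 1 to 3 libraries. Of the 15 genes chosen for their response to Kit in the study, 0 had a member within 50 kb. All 15 had a distal region there, and over all protein-coding genes with such a region the share with a member was 6.66%, so a count of 0 among 15 is near that background. These lists were set with results of the same data known and give no test.

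The comparison of SCF with PBS asks which sites change when Kit is activated. For the 364 members called in all 4 libraries, no difference in log2 fold enrichment passed an adjusted p of 0.05 in limma, and the smallest adjusted p was 0.438. Over all 22355 regions called in all 4 libraries, limma also made 0 calls, 0% of those tested. At an unadjusted limma p under 0.05, 19 of the 364 members were higher and 18 lower in SCF. Over all regions tested the shares were 3.52% and 3.34%. Of the 8619 distal regions tested, 514 were higher and 335 lower. The median log2 difference of members was 0.028, and over all regions it was −0.0017. Their quartiles were −0.12 and 0.22, and the median SE was 0.20. With 2 libraries per treatment, differences smaller than the replicate spread could not be detected.

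Ranks moved in both directions. A rank gain, with both SCF ranks at least 10 points above both PBS ranks, was found for 12 of the 364 members (3.3%), against 2.56% of all regions called in 4 libraries. A rank loss was found for 16 (4.4%), against 3.04%. Over all distal regions the shares were 4.61% and 4.2%. Neither share stood far from its background. With the same number of peaks taken from each library, 22 members had a gain and 12 a loss, so the balance of directions depended on that choice. The share over all regions was not counted in that setting, so whether this shift was particular to the members is unknown. The median gap between the replicates was 8.56 points in PBS and 11.4 points in SCF, and the median absolute difference between treatments was 6.93 points.

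**Figure D4:**
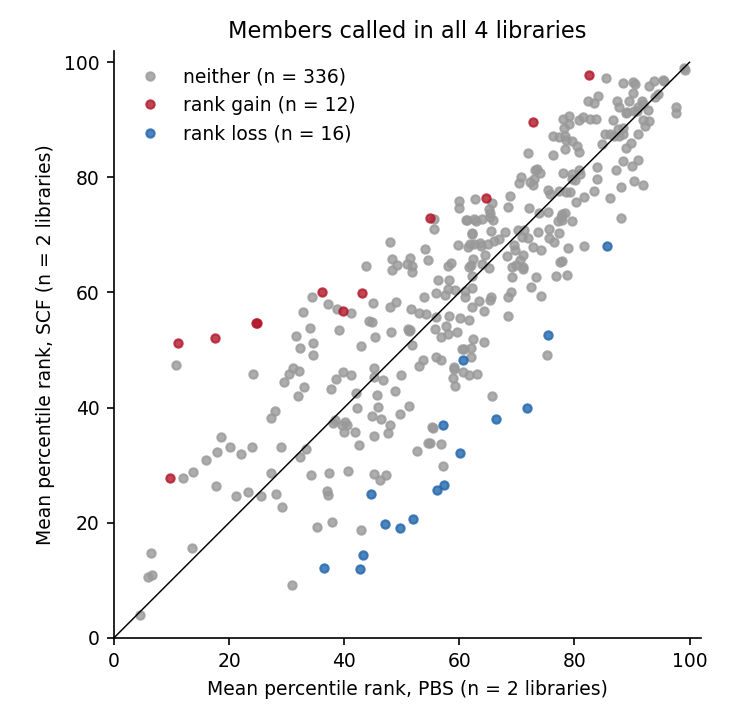
Mean percentile rank in SCF (y axis) against that in PBS (x axis), each over 2 libraries, for the 364 members called in all 4 libraries, with the line of equal rank. The 12 members with a rank gain and the 16 with a rank loss are coloured, and the other 336 lie around the line.

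The rank gain was largest in an intron of GRM7, a metabotropic glutamate receptor gene. Its ranks were 8.57 and 13.6 in PBS and 38.2 and 64.2 in SCF, from 7, 9, 11 and 15 fragments. The log2 difference was 0.88 ± 0.24 (SE, limma adjusted p = 0.549). In SIK3, a salt-inducible kinase gene, ranks were 30.01 and 5.27 in PBS and 50.4 and 53.8 in SCF, with a log2 difference of 0.76 ± 0.25 (SE, adjusted p = 0.633). Without PBS replicate 2 the difference in SIK3 was 0.43. At both sites the SCF values lay above both PBS values, while the replicates within a treatment were themselves well apart.

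The 3 other gains named were in KAT6B, PDCD10 and TRABD2B. In KAT6B, a histone acetyltransferase gene, ranks were 35.4 and 36.9 in PBS and 54.7 and 65.5 in SCF (log2 difference 0.54 ± 0.21, SE). In PDCD10, a gene of endothelial junctions, they were 54.2 and 55.5 in PBS and 72.5 and 73.5 in SCF (0.45 ± 0.18, SE), the closest replicates of the 5 sites. In TRABD2B they were 27.1 and 22.5 in PBS and 66.0 and 43.3 in SCF (0.65 ± 0.25, SE), and the difference was 0.34 without SCF replicate 1. Of these 5 sites PDCD10 had the most fragments, 19, 23, 22 and 25.

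The elements of the sites with a rank gain are shown for comparison with those of a rank loss.
GRM7 intron, chr3:7724643-7724672, minus strand: taaccaCATGTGtggcttTGATAAtgttac
SIK3 intron, chr11:116958328-116958356, plus strand: aaaggCAGATGgggagacAGATAAgataa
KAT6B intron, chr10:76614008-76614036, minus strand: tcacCACCTGaagacagagAGATAAgcac
PDCD10 intron, chr3:167441925-167441953, plus strand: tactcCATCTGggacttgAGATAAgtcta
TRABD2B intron, chr1:48387817-48387845, plus strand: tctctCATCTGgttccctAGATAAgcagc
LDB3 intron, chr10:88481155-88481183, plus strand: tgcttCAGCTGgctgcaaAGATAAgctga
NFX1 intron, chr9:33341401-33341430, plus strand: tacaaCATGTGggaattcaAGATAAgattt
FGF12 intron, chr3:192263115-192263144, plus strand: tttacCATGTGcatccacaTGATAAatgtt
CCNY intron, chr10:35668277-35668305, minus strand: gccccCATCTGggcaagcTGATAAgaaag
ZNF385D-distal, chr3:22492711-22492739, plus strand: gtaaCAGATGtggcctactTGATAAagct
CATCTG was present among the elements of both kinds.

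The largest rank loss was in LDB3, a gene of the muscle Z-disc, with ranks of 52.8 and 46.6 in PBS and 16.9 and 21.3 in SCF. Its fragments numbered 18 and 18 in PBS and 8 and 9 in SCF, and the log2 difference was −0.56 ± 0.23 (SE, limma adjusted p = 0.678). In NFX1, a transcription factor gene, ranks were 64.0 and 68.6 in PBS and 35.2 and 40.9 in SCF (−0.61 ± 0.20, SE), and the 31 bases of its element have a second copy in the reference. In CCNY, which encodes cyclin Y, they were 58.4 and 56.2 in PBS and 16.9 and 36.1 in SCF (−0.61 ± 0.23, SE). The losses in FGF12 and near ZNF385D had log2 differences of −0.53 and −0.58. At each of these 5 sites both SCF ranks lay below both PBS ranks, which is how they were chosen.

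**Figure D5:**
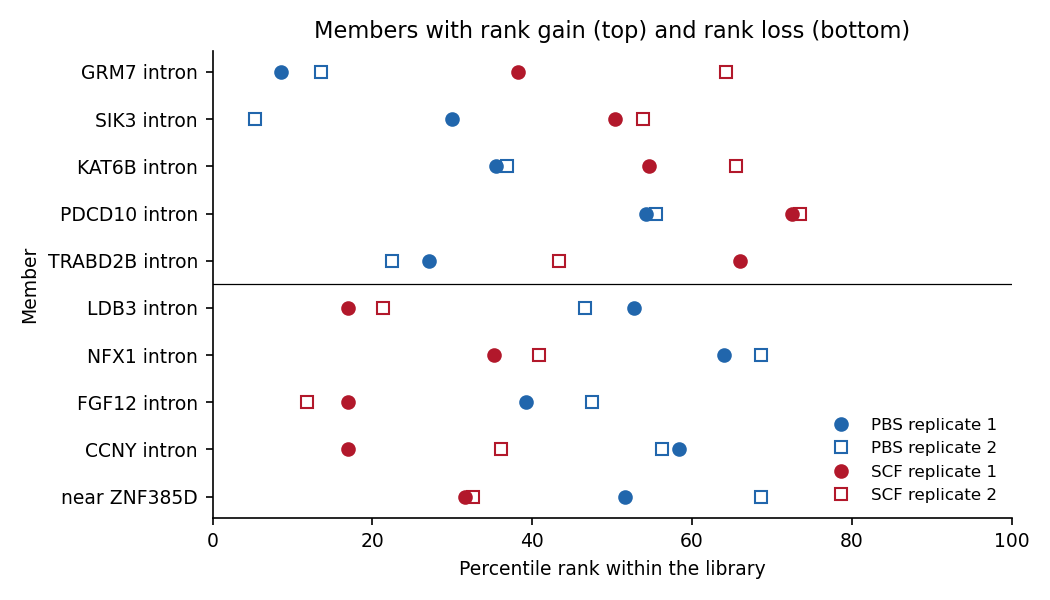
Percentile rank within each library (x axis) of the 5 members with the largest rank gain and the 5 with the largest rank loss (y axis), with 1 point per library. SCF points lie to the right of PBS points in the upper 5 members and to the left in the lower 5, and the spread between replicates differs from site to site.

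The size of some of the largest log2 differences depended on 1 library. In CFAP210 the log2 difference was 0.83 ± 0.31 (SE, limma adjusted p = 0.668), from ranks of 14.0 and 7.45 in PBS and 16.9 and 77.8 in SCF. SCF replicate 2 alone was high there, and without it the difference was 0.23, against 1.42 without SCF replicate 1. In DNAH8, an axonemal dynein gene, ranks were 73.4 and 70.1 in PBS and 52.7 and 27.3 in SCF, and the difference was −0.68 ± 0.23 (SE, adjusted p = 0.635). Without SCF replicate 2 it was −0.37. In ELMO1, a regulator of cell migration, ranks were 31.96 and 53.5 in PBS and 2.34 and 21.6 in SCF. The difference was −0.64 ± 0.24 (SE, limma adjusted p = 0.668), and −0.42 without SCF replicate 1. DNAH8 and ELMO1 were also among the rank losses, and their differences stayed negative in every setting that tested them.

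Members called under 1 treatment only were few. Both SCF libraries and neither PBS library called 9 members (1.27%), against 1.65% of all regions and 2.26% of distal ones. Both PBS libraries and neither SCF library called 23 (3.24%), against 2.37% and 3.02%. The SCF-only members of highest rank lay in introns of ABCA4, CRY2, IL1RN and CPB1 and in an exon of LINC02910, with 7 to 9 fragments over the summit. The PBS-only members of highest rank lay in CMSS1 and TRHDE and near TSPAN7, IGSF10 and PPIL4, with 10 to 19 fragments. In CMSS1 the ranks in PBS were 61.6 and 54.8, and in ABCA4 the ranks in SCF were 19.99 and 32.6. A region without a peak had none past the threshold at that depth, which does not show that it was closed.

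Fewer libraries have to agree when 1 is left out, so these counts could then only stay or rise. A rise alone therefore does not show that a count rested on 1 library. Without PBS replicate 1, PBS replicate 2, SCF replicate 1 and SCF replicate 2 in turn, the rank gains numbered 32, 54, 73 and 24 and the rank losses 37, 27, 42 and 81. The members called under SCF only numbered 18, 29, 64 and 19, and those under PBS only 82, 53, 37 and 76. Limma called 0 members in each of these 4 fits. For comparison, 81 distal regions held both the composite and the AP-1 word. Of the 40 among them that all 4 libraries called, 2 (5.0%) had a rank gain and 0 a rank loss, against 4.61% and 4.2% of all distal regions. Their median log2 difference was 0.12, against 0.026 over all distal regions. At an unadjusted limma p under 0.05, 5 were higher and 0 lower, against 514 and 335 of 8619 distal regions. After adjustment, limma called 0 of the 40.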

How the data were processed

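Chromatin accessibility was measured by ATAC-seq, in which the transposase Tn5 inserts sequencing adapters into open chromatin. The processed data were peak lists of the 4 sgControl libraries, called per library. The submitters' processing notes name bcl2fastq, Bowtie2 and SAMtools, and the methods of the study name the ENCODE ATAC-seq pipeline. The peak caller and its settings are not given in the sources used here. The notes name hg38, whereas the header of each list names hg19. Positions were read as hg19, and 0 chromosomes had a peak beyond the end of GRCh37. Replicate numbers inside the peak names differ from those of the labels, which were followed.

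The deposited fold column was read from its values as the ratio of summit signal to local background, each raised by 1. The other columns deposited by the authors are a score that was not used, −log10 p-values and −log10 q-values. The largest q-value was 0.0497. On that reading, a whole number over the summit was recovered from fold and −log10 p in 100% of peaks with a −log10 p under 300, to a tolerance of 0.0001. It is called the number of fragments here, although the unit that the peak caller counted is not given. Total reads are unknown, so intervals cover counting error only.

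Peaks sharing 1 bp were merged. Start sites were those of GENCODE release 44 in its GRCh37 version, and sequences were read from the GRCh37 primary assembly (samtools 1.23.1, Python 3.11.15). Distance to a start was taken from the edge of a region. A region with several elements was described by the one nearest its summit, and element counts by gap include all. Log2 fold enrichment was centred on the median of each library and compared between SCF and PBS over all regions called in all 4 libraries with limma 3.58.1 (trended empirical Bayes, Benjamini-Hochberg adjustment), after a test on simulated data. Members named were the 10 of highest mean rank, the 5 largest log2 differences in each direction, up to 5 of each kind of one-treatment call and of rank change, and those within 50 kb of a listed gene. The CTG ending of the E-box was singled out after the values were seen. The members and lists were chosen with earlier results of these data known.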

Additional observations from a re-analysis of the deposited data

How the results depend on the processing

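Each choice was changed in turn. The number of members was 321 with a window of 50 bp and 543 to 997 under the other alternatives, and it was 631 to 691 with 1 library left out. The count at gaps of 7 to 9 bp stayed between 2.89 and 3.45 times the median of the other gaps, and the median rank of members stayed 11.4 to 14.9 points above that of other distal regions. With a −log10 q of at least 5, 5 members were called in SCF libraries only. The requirement that 50% of a peak lie in its region can change nothing, since a region is the union of its peaks. Rank gain numbered 38 and rank loss 26 at a gap of 5 points, 2 and 4 at 20 points. Gains and losses numbered 7 and 15 when ranked by −log10 p, and 22 and 12 with 29269 peaks per library, where gains outnumbered losses. Rank changes under the alternatives were counted for members only, with no share over all regions. Leaving out 1 library gave 18 to 64 members called in SCF libraries only, 37 to 82 in PBS libraries only, 24 to 73 with rank gain and 27 to 81 with rank loss.

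Over all regions, limma made 0 calls in 7 settings, with 1178 to 1699 regions at an unadjusted p under 0.05, and 3 to 9 calls with 1 library left out. Members had 0 calls in all 11 settings, and their median log2 difference ran from −0.010 to 0.078. A replicate block also gave 0 calls, with 22 members higher and 19 lower at an unadjusted p under 0.05. With the block, the smallest limma adjusted p was 0.0737 over all regions and 0.209 for members, against 0.438 for both without it. The deviations of same-numbered libraries correlated at 0.0119 over 22355 regions. This cannot decide whether the samples were paired, because replicate numbers inside the peak names differ from those of the labels. Of 306 values of 32 named members, 11 moved by more than the replicate SD. Alternatives on the distance from the summit, the coverage of a region and the member rule without single libraries were chosen after seeing the data. Depth limits what an absent peak shows.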
